A study of Mus musculus with 768 samples.

Results

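Single muscle stem cells differed widely in their reads of 6 immediate early genes, *Fos*, *Fosb*, *Jun*, *Junb*, *Egr1* and *Ier2*, and the cells at the upper and lower end of that range were compared here across all other genes. For each cell the reads of the 6 genes per 1000000 reads on genes (RPM) were added up, and the cells of each mouse were ordered by this sum and split into 3 parts, with any cells left over in the middle part. The top part is called the high cells and the bottom part the low cells. They comprise 246 of the 377 cells in the table, 123 high and 123 low, and the other 131 cells lie between them. Each mouse contributed the same number of high and low cells, 20 each in mouse Y4, 14 in Y5, 24 in Y7, 25 in Y8, 18 in O1 and 22 in O5, so each mouse is its own control.

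The cells were sorted from the tibialis anterior muscle of *Tg:Pax7-nGFP* mice, in which the regulatory sequences of *Pax7* drive a nuclear green fluorescent protein (strain label MGI:5308730). The animals were males on a C57BL/6;DBA2 F1/JRj background. Mice Y4, Y5, Y7 and Y8 were young, labelled 2 months, and O1 and O5 were old, labelled 24 months. Other ages are given for these cells in the paper, and the labels are followed here. All groups share the reporter and the handling: the muscle was digested in collagenase and trypsin at 37°C, the suspension was frozen and thawed, and the cells with the highest green fluorescence were sorted, so that the results describe the cells with the most Pax7 reporter after enzymatic release and not cells fixed in the muscle. RNA and genomic DNA of the same cell were separated, and the RNA was read from full-length cDNA.

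Immediate early genes are transcribed within minutes of a stimulus because their promoters are already occupied by factors such as SRF, CREB and the ETS-domain partners of SRF, which kinases switch on without new protein synthesis. Their products include the Fos and Jun families, which pair to form the transcription factor AP-1, and zinc finger factors of the EGR family; a second set of early genes then shortens the response by destroying messenger RNAs, removing phosphates from kinases or blocking cytokine receptors. In muscle stem cells the release from the fibre by enzymes is itself known to switch on this programme and they are also induced when the cells leave quiescence. No sample without digestion is among these data, and the part of handling in the sum was not tested.

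The cell type label was checked against marker lists. All 10 muscle stem cell markers had reads. Their summed level was 8886 to 14034 RPM in the high cells and 8633 to 19332 RPM in the low cells of the 6 mice. This sum was lower in the high cells of 5 of 6 mice, with means of 11334 and 14239 RPM. *Sdc4* made up much of it, at means of 5153 and 8157 CPM (scaled counts, defined below), and was lower in every mouse. Gene by gene, 5 of the 10 were higher and 5 lower, with a median log2 difference of 0.08. *Pax7* and *Cdh15* were higher in every mouse. Of 7 endothelial markers 4 were at 0 (*Cdh5*, *Kdr*, *Emcn*, *Tie1*), and of 8 immune markers 4 were at 0 (*Lyz2*, *C1qa*, *C1qb*, *Laptm5*). The others had reads. The endothelial sum was 0 to 85.6 RPM in the high and 0 to 9.63 RPM in the low cells, higher in 4 of 6 mice. The immune sum was 0 to 46.9 RPM against 1.77 to 52.6 RPM. Summed myofibre, Schwann and erythroid markers reached at most 48.1 RPM in either group of a mouse. The summed fibro-adipogenic markers were higher in the high cells of 6 of 6 mice, at 1150.4 to 3361 RPM against 1051 to 2656 RPM, while the defining markers *Pdgfra*, *Pi16* and *Lum* were at 0. The summed mural markers were higher in 5 of 6 mice, at 384 to 1116 RPM against 173 to 1057 RPM, with *Myh11* at 0. Their means were 803 and 700 RPM. The mural list holds *Notch3*, which is also counted below among the genes of quiescence and stem cell identity. *Notch3* had means of 674 CPM in the high and 431 CPM in the low cells and was higher in every mouse. Of the 2 mural markers that could be tested, the other was lower. The part of these lists in the results below was not tested. A cell had 101755 to 626142 reads on genes (median 272816) and a summed group of cells had 3140482 to 9622958 reads.

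The sum varied widely among the cells of each mouse. Its median over cells was 5256, 4321, 4492 and 5118 RPM in the young mice Y4, Y5, Y7 and Y8, and 7087 and 8140 RPM in the old mice O1 and O5. The mean was 24448 to 36521 RPM in the high cells and 829 to 2106 RPM in the low cells, 16.8 to 36.1 times apart. The high cells held 76% to 82.4% of the RPM of the 6 genes over all cells of their mouse. The limits between the groups cut through a continuous range: the lowest high cell and the highest middle cell stood at 14757 and 12616 RPM in Y4, at 7848 and 7820 RPM in Y8 and at 15235 and 15153 RPM in O5. At the lower limit the highest low cell and the lowest middle cell stood at 2735 and 2787 RPM in Y4 and at 3812 and 3825 RPM in O5. Because the limits were set within each mouse, a high cell of Y7, where the limit was 7202 RPM, could have a smaller sum than a middle cell of O1. With 1 limit for all mice, 10625 RPM, 24.0% to 36.7% of the cells of the young mice and 37.5% and 47.1% of the cells of O1 and O5 lay above it.

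The values that chose the cells are given as a description, with no test. *Fos*, the AP-1 subunit on chromosome 12 (GRCm38, 85473890 to 85477273), had a mean of 6317 to 11525 RPM in the high cells of the 6 mice and 14.3 to 174 RPM in the low cells. *Egr1*, the zinc finger factor, had 5328 to 16051 RPM against 40.9 to 235 RPM. *Junb* had 4018 to 4802 RPM against 76.3 to 257 RPM. The low cells were not empty of early gene reads. *Fosb* was detected in 81.6% ± 16.3 (SD, n = 6 mice) of the low cells and made up 38% of their sum, against 12.4% of the sum in the high cells. *Jun* was detected in 62.9% ± 17.4 of the low cells, whereas *Fos* was detected in 30.6% ± 9.0. In the high cells *Fos* and *Egr1* made up 29.1% and 29.8% of the sum, and *Ier2*, a nuclear early protein, made up 2.75%. The sum is not divided by gene length, so these shares are shares of reads and not of transcripts.

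**Figure D1:**
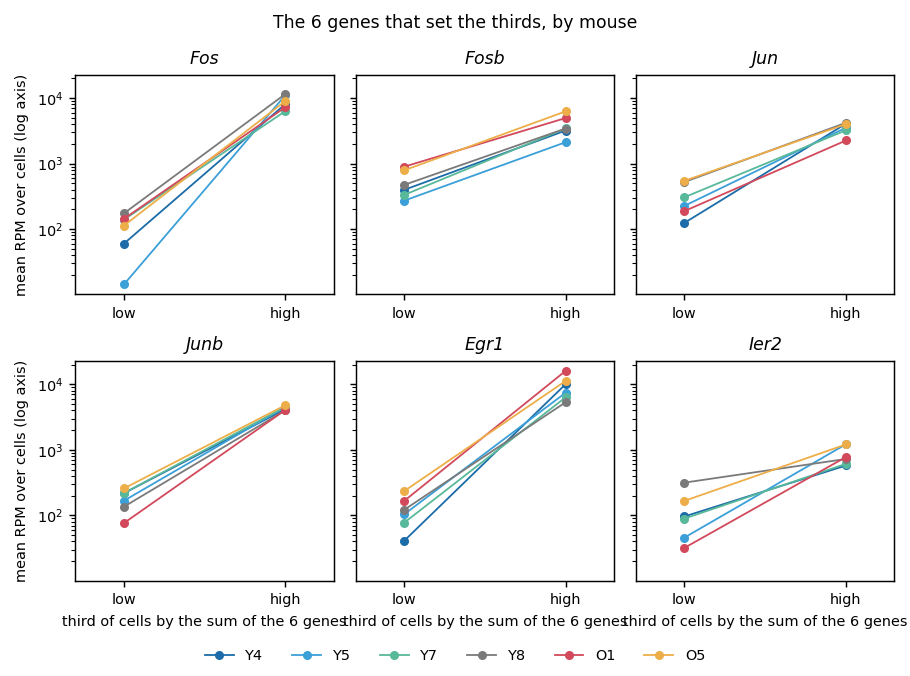
Mean RPM of each of the 6 genes over the low and the high cells of each mouse, on a log axis; each line joins the groups of 1 mouse (Y, young; O, old). The groups were chosen by these values, so the gap is given by the rule; the low cells kept more *Fosb* (272 to 896 RPM) than *Fos* (14.3 to 174 RPM).

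Most high cells had reads of the whole set. All 6 genes were detected in 87 of 123 high cells, in 30 of 131 middle cells and in 4 of 123 low cells. No high cell had fewer than 4 of the 6, while 3 low cells had none. Within mice, over all cells, the rank correlation (Spearman's rho, mean of 6 mice) was highest between *Junb* and *Egr1*, at 0.68, and was 0.64 between *Fos* and *Egr1* and 0.63 between *Fos* and *Junb*. *Ier2* was the least tied to the others, with means of 0.25 to 0.40. These coefficients describe cells that share a mouse, a plate and their depth. When the groups were set anew by the other 5 genes, the left-out gene was higher in the high cells of 6 of 6 mice in each case, by 8.27 ± 1.56 (SD, n = 6) for *Fos*, 8.05 ± 1.70 for *Egr1*, 7.27 ± 0.91 for *Junb*, 5.23 ± 1.93 for *Jun*, 4.06 ± 2.00 for *Ier2* and 3.78 ± 1.27 for *Fosb*, as the difference of mean log2(RPM + 1). No test is given for them, since the 6 genes were put together with their values known.

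Across the other genes, reads were summed over the high and the low cells of each mouse and compared within mice with edgeR's quasi-likelihood test. Of 8723 genes tested, 11 passed an adjusted p of 0.05 (Benjamini-Hochberg), 0.126% of those tested; 9 were higher in the high cells (0.103%) and 2 were lower (0.0229%). At an unadjusted p of 0.05 the count was 569. The 9 genes that rose were *Btg2*, *Zfp36*, *Socs3*, *Nr4a1*, *Id3*, *Hspa1a*, *Gm20481*, *Dnajb1* and *BC042782*, and those that fell were *Akap2* and *Gm20459*. Of these, *BC042782* overlaps *Jun*, a gene of the sum, so its call is not independent of the rule that chose the cells. *Gm20481* overlaps *Hspa1a* and *Gm20459* covers *Akap2*, so these pairs are not separate signals, as described with each. When each mouse was left out in turn, *Btg2*, *Zfp36*, *Nr4a1*, *Hspa1a* and *Gm20481* passed in 6 of 6 fits. *Id3* and *Socs3* lost the call without Y5, without Y8 and without O5, *Dnajb1* passed only without O1, *Akap2* and *Gm20459* only without Y8, and *BC042782* in none. Levels are given below as counts per 1000000 reads outside the 6 genes, after TMM scaling (CPM).

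Feedback inhibitors gave 3 of the calls. *Btg2*, an anti-proliferative early gene whose product recruits the deadenylase that shortens messenger RNAs, stood at 3004, 2327, 814 and 387 CPM in the high cells of Y4, Y5, Y7 and Y8 and at 2338 and 1311 CPM in those of O1 and O5. In the low cells it stood at 27.1, 68.2, 39.6, 32.4, 149.6 and 78 CPM in the same order. The groups did not overlap, and the log2 difference was 4.59 ± 0.44 (SE; edgeR adjusted p = 0.0057). *Zfp36*, which encodes tristetraprolin, a protein that binds AU-rich messenger RNAs and marks them for decay, stood at 2359, 2338, 2521, 1135, 4349 and 2452 CPM in the high cells and at 79.7, 123, 189, 332, 328 and 166 CPM in the low cells. These groups did not overlap either; the log2 difference was 3.74 ± 0.38 (edgeR adjusted p = 0.0057), and mouse Y8, with the lowest high value and the highest low value, showed the smallest change. *Socs3*, which blocks signalling from cytokine receptors through JAK kinases, had a lowest, median and highest level of 678, 1066 and 1519 CPM in the high cells and 48.8, 61.2 and 188 CPM in the low cells, a log2 difference of 3.69 ± 0.44 (edgeR adjusted p = 0.0145).

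*Nr4a1*, an orphan nuclear receptor and early gene, stood at 3071, 4197, 1848 and 969 CPM in the high cells of Y4, Y5, Y7 and Y8 and at 5747 and 3660.1 CPM in those of O1 and O5, against 273, 342, 119.9, 25.0, 51.8 and 151 CPM in the low cells. The lowest high value was above the highest low value, and the log2 difference was 4.57 ± 0.46 (edgeR adjusted p = 0.0057). *Id3*, an inhibitor of basic helix-loop-helix factors such as MyoD, had a lowest, median and highest level of 814, 1931 and 3693 CPM in the high cells and 41, 124 and 388 CPM in the low cells, a log2 difference of 3.70 ± 0.44 (edgeR adjusted p = 0.0145). In the share of cells with a read, *Btg2* went from 25.3% of low to 87.2% of high cells, *Zfp36* from 47.1% to 93%, *Nr4a1* from 28.3% to 75.9% and *Id3* from 31.2% to 76.7%, as means of the 6 mice.

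The promoters of *Btg2*, *Nr4a1* and *Hspa1a* are shown for the letters that CREB, EGR and heat shock factors are known to bind. The sequences are the 200 bases before a transcript start in RefSeq (GRCm38.p6, the build of the deposited files), in the direction of the gene, with the matches in capitals. *Btg2* (chr1:134079156-134079355, minus strand) has a CRE, the letters bound by CREB, 166 bases before the start and an EGR site 131 bases before it. *Nr4a1* (chr15:101266646-101266845, plus strand) has the core of a CRE at 69 and at 40, with an EGR site at 60 between them. *Hspa1a* (chr17:34972157-34972356, minus strand) has a head-to-head pair of the units bound by heat shock factor at 104. Of the genes not printed, *Zfp36* has a CArG box, the letters bound by SRF, at 58 and an EGR site at 105, and *Socs3* has an EGR site at 181; these stretches overlap exons of other transcripts of the same genes in GENCODE M21.
Btg2: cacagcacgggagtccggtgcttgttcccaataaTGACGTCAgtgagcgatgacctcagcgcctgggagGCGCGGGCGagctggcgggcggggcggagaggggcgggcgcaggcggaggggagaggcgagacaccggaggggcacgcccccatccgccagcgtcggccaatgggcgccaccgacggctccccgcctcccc
Nr4a1: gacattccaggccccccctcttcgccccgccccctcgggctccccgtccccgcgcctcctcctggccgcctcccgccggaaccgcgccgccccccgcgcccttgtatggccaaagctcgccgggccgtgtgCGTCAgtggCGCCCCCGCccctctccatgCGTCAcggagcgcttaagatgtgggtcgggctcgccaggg
Hspa1a: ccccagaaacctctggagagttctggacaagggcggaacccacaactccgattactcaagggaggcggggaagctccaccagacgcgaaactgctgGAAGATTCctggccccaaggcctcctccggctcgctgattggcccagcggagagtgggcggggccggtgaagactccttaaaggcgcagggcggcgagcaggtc

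Both strands of the window from 250 bases before to 50 after the start were searched in 32851 RefSeq promoters. The CArG box was in 1.629% of them, the CRE (TGACGTCA) in 1.79%, the CRE core (TGACG, which also lies in the CRE on both strands) in 20.81%, the EGR site (GCGNGGGCG) in 5.552%, the AP-1 site (TGANTCA) in 7.808% and the heat shock pairs GAANNTTC and TTCNNGAA in 7.86% and 8.52%. Of the 7 genes past the threshold with a promoter in the table, 4 held an EGR site (*Btg2*, *Nr4a1*, *Socs3*, *Zfp36*), 4 the CRE core, 1 the CArG box, 1 a heat shock pair and 0 the AP-1 site. Of the 4 genes of the sum with a promoter, *Fos*, *Fosb* and *Junb* held the CRE core, *Fosb* also an EGR site and *Jun* a heat shock pair. These are matches of letters in a short window; they show no binding, and a missing match says only that the letters are not in this window.

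The heat shock genes *Hspa1a* and *Dnajb1* rose, from levels that differed widely between mice. *Hspa1a*, the inducible chaperone of the Hsp70 family, stood at 3098, 6029, 345, 265, 4289 and 3279.7 CPM in the high cells of Y4, Y5, Y7, Y8, O1 and O5 and at 633, 1634, 67.8, 33.3, 721 and 684 CPM in the low cells. The groups overlapped, because the high cells of Y7 and Y8 stood below the low cells of the other mice, yet within each mouse the high cells stood above by 1.88 to 2.96 on the log2(CPM + 1) scale. The log2 difference was 2.39 ± 0.18 (edgeR adjusted p = 0.00188), the smallest p of all genes tested. *Dnajb1*, its co-chaperone, had a lowest, median and highest level of 785, 3280.3 and 6764 CPM in the high and 114, 552 and 1906 CPM in the low cells, a log2 difference of 2.26 ± 0.31 (edgeR adjusted p = 0.0344). *Gm20481* (log2 difference 2.30 ± 0.22, edgeR adjusted p = 0.0057) overlaps *Hspa1a* on the opposite strand, and its reads followed those of *Hspa1a* from cell to cell (mean rho 0.99). The use of strand in counting is not given in the sources used here, so the reads of both cannot be told apart. *Hspa1b*, nearly identical to *Hspa1a* in sequence, had a log2 difference of 2.03 ± 0.36 (edgeR adjusted p = 0.108).

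*BC042782* rose by 3.49 ± 0.51 on the log2 scale (edgeR adjusted p = 0.0486), but it is not independent of the rule. It starts inside *Jun* on the opposite strand (chromosome 4, 95051534 to 95167318; *Jun* 95049034 to 95052222), and in GENCODE M21 the gene with this start is named *Junos*. Its reads were 6.28% to 8.17% of those of *Jun* in the high cells of the 6 mice and 5.79% to 8.91% in the low cells, and the mean rho between both over cells was 0.94. Without strand its reads cannot be told from those of *Jun*. *Prdx2*, which overlaps *Junb* on the opposite strand by the positions in GENCODE M21 but not by the table's start of *Junb*, had a log2 difference of 0.90 ± 0.52 (edgeR adjusted p = 0.906).

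The fall was on 1 stretch of chromosome 4. *Akap2*, which encodes an anchoring protein that ties protein kinase A to places in the cell (57717657 to 57896984, plus strand), stood at 821, 518, 1080.0 and 1491 CPM in the high cells of Y4, Y5, Y7 and Y8 and at 736 and 1275 CPM in those of O1 and O5. In the low cells it stood at 2765, 2538, 3109, 3215, 3808 and 3042 CPM. The groups did not overlap, and it fell by 1.72 ± 0.21 on the log2 scale (edgeR adjusted p = 0.0145). *Gm20459* (57568179 to 57896982, same strand, *Pakap* in GENCODE M21) covers the whole of *Akap2* and fell by 1.71 ± 0.21 (edgeR adjusted p = 0.0167). The summed reads of both over the high and low cells were nearly equal, 19983 and 19684 in Y4 and 43468 and 43008 in Y8, so they are read here as 1 signal. Reads of *Akap2* were found in 82% of high and 98% of low cells.

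**Figure D2:**
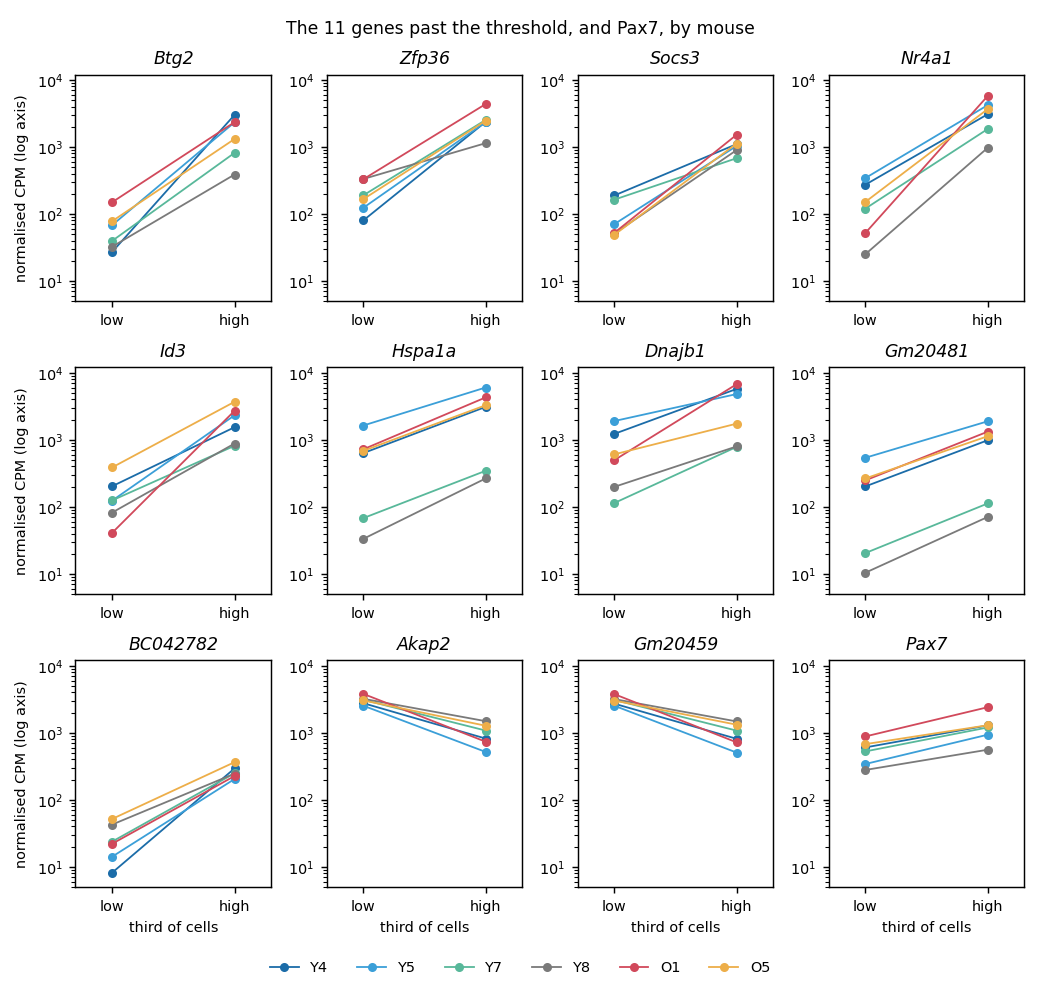
Normalised CPM (log axis) of the 11 genes past the threshold and of *Pax7* in the summed low and high cells of each mouse; each line joins the groups of 1 mouse. *Hspa1a* and *Gm20481* start far lower in Y7 and Y8 (67.8 and 33.3 CPM of *Hspa1a* in the low cells) than in the other mice, and *Akap2* and *Gm20459* are drawn alike in every mouse.

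The middle cells stood between the groups for most of these genes. The genes were chosen for the gap between high and low cells, so this order is a description and no further test. It was not counted for genes chosen in another way. Scaled by library totals alone, *Btg2* had a mean of 61.1, 331 and 1653 CPM in the low, middle and high cells, and the middle value lay between the others in 6 of 6 mice. The same order held in 6 of 6 mice for *Nr4a1* (162, 1212 and 3099.8 CPM), *Zfp36* (194, 530.3 and 2424 CPM) and *Id3* (159, 894 and 1893 CPM). *Akap2* had 2986, 2302 and 965 CPM, in this order in 5 of 6 mice. *Dnajb1* kept the order in 4 of 6 mice.

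Cell by cell, the genes past the threshold differed in which member of the sum gave the highest correlation. Some of the margins were small, and none was tested. *Zfp36* had a mean rho of 0.65 with the sum (0.37 to 0.78 in the 6 mice), and among the 6 genes it was highest with *Junb* (0.63). *Btg2* had 0.64 with the sum (0.50 to 0.76) and was highest with *Fos* (0.60), close to *Junb* (0.57) and *Egr1* (0.57). *Nr4a1* (0.53 with the sum) was highest with *Egr1* (0.50). *Id3* (0.49) and *Socs3* (0.44) were highest with *Junb* (0.49 and 0.47), and *Id3* was nearly as high with *Egr1* (0.48). *Hspa1a* (0.36) and *Dnajb1* (0.27) followed the sum less closely and followed each other at 0.37, while *Hspa1a* and *Btg2* had a mean rho of 0.22. *Akap2* ran against each of the 6 genes, from -0.27 with *Ier2* to -0.45 with *Egr1*. These are descriptions over 44 to 75 cells a mouse that share library, plate and depth.

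**Figure D3:**
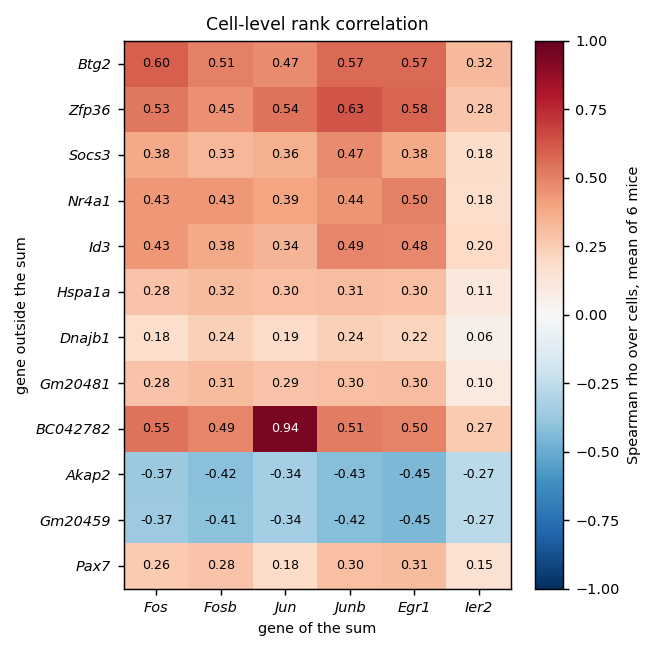
Spearman's rho over all cells of a mouse, as the mean of 6 mice, between each gene past the threshold (and *Pax7*) and each gene of the sum; red is positive and blue negative. *BC042782* stands out with *Jun* (0.94), which it overlaps, and the column of *Ier2* is the palest.

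Genes of the early response outside the sum were then read by list. The lists were made from textbook roles with earlier results of these data known, so they are described by counts and medians beside those of all genes tested. Among these, 271 genes (3.11%) were higher in the high cells of every mouse and 318 (3.65%) were lower in every mouse; the median log2 difference was -0.05. Genes whose lowest high value was above the highest low value numbered 46 (0.527%), and 26 (0.298%) had the opposite pattern.

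Among other AP-1 and bZIP factors, 0 of 9 tested passed the threshold, 4 were higher and 1 was lower in every mouse, and the median was 0.94. *Atf3*, a stress-induced bZIP repressor, had a lowest, median and highest level of 631, 1948 and 3489 CPM in the high and 27.9, 241 and 475 CPM in the low cells, with no overlap (log2 2.97 ± 0.68, edgeR adjusted p = 0.27). *Jund*, the least inducible Jun protein, had a log2 difference of 1.03 ± 0.27 and *Mafk* of 1.16 ± 0.28. *Fosl1*, an AP-1 subunit of the later response, was lower in 5 of 6 mice (log2 -1.13 ± 0.44), and *Mafg* was lower in 6 of 6 (-1.08 ± 0.39).

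Of 14 EGR, NR4A and KLF factors, 1 (*Nr4a1*) rose, 5 were higher in every mouse, 1 was lower in every mouse, and the median was 1.12. *Egr2* had a lowest, median and highest level of 226, 333 and 1041 CPM in the high and 18, 48.9 and 111 CPM in the low cells, with no overlap (log2 3.20 ± 0.52, edgeR adjusted p = 0.0787). *Egr3* was at 2.16 to 21.1 CPM in the high cells and at 0 in the low cells of 4 mice, too few reads for a fold. *Ier3* stood at 276 to 535 CPM against 82.9 to 213 CPM, also with no overlap (log2 1.72 ± 0.29, edgeR adjusted p = 0.103). *Ier5* was the exception: it was lower in 6 of 6 mice, at 122 to 566 CPM in the high and 231 to 1980.2 CPM in the low cells (log2 -1.26 ± 0.26, edgeR adjusted p = 0.209). *Nr4a3*, a close relative of *Nr4a1*, was higher in 4 of 6 mice (log2 0.81 ± 0.78). *Myc*, an early gene of the same list, was higher in 4 of 6 mice with a log2 difference near 0 (-0.04 ± 0.28).

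Of 26 feedback inhibitors, 3 rose (*Btg2*, *Zfp36*, *Socs3*), 9 were higher and 2 lower in every mouse, and the median was 1.02. Of the regulators of NF-kappaB in this list, *Nfkbia* and *Nfkbiz* were higher in every mouse and *Tnfaip3* in 5 of 6 (log2 3.94 ± 1.26, edgeR adjusted p = 0.562), being lower in O1. *Nfkbia* stood at 1568 to 3286 CPM against 392 to 1491 CPM (log2 1.40 ± 0.31, edgeR adjusted p = 0.258) and *Nfkbiz* at 367 to 2474 CPM against 129 to 245 CPM (log2 2.36 ± 0.41, edgeR adjusted p = 0.103), both with no overlap. *Zfp36l1*, a relative of *Zfp36*, had a log2 difference of 1.40 ± 0.23 (edgeR adjusted p = 0.091). *Gadd45b* and *Ppp1r15a*, stress-induced regulators of kinases and of translation, had 1.79 ± 0.32 and 0.96 ± 0.22. Phosphatases of MAP kinases varied in direction. *Dusp1* was higher in 3 of 6 mice (log2 0.45 ± 0.34), and *Dusp10*, a phosphatase of p38 and JNK, was lower in 6 of 6, at 1.03 to 50.2 CPM against 105 to 305 CPM (log2 -3.26 ± 0.81, edgeR adjusted p = 0.337).

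Of 14 early kinases, circadian and helix-loop-helix genes, *Id3* rose, 5 were higher and 1 lower in every mouse, and the median was 1.37. *Irf1*, a transcription factor of the interferon response, had a lowest, median and highest level of 287, 501 and 1710.4 CPM in the high and 0.546, 26.3 and 58.8 CPM in the low cells, and was detected in 51.6% of high and 8.70% of low cells (log2 5.45 ± 1.00, edgeR adjusted p = 0.118). *Id2*, a relative of *Id3*, had 1.20 ± 0.43, and *Sgk1*, a kinase induced by serum and glucocorticoids, was lower in 6 of 6 mice (-0.73 ± 0.23). Of 14 early secreted and cytoskeletal genes, 0 passed the threshold, 2 were higher and 1 lower in every mouse, and the median was 1.47. *Cyr61* and *Ctgf*, matricellular genes of the same family, stood apart: *Cyr61* was at 988 to 6456 CPM against 123 to 696 CPM (log2 3.06 ± 0.63, edgeR adjusted p = 0.187), and *Ctgf* was at 16.5 to 147 CPM against 153 to 2200.3 CPM (log2 -2.91 ± 0.72, edgeR adjusted p = 0.337). The chemokine *Cxcl1* was higher in 3 of 6 mice (log2 0.41 ± 0.32).

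Of 16 heat shock genes, 2 rose, 5 were higher and 0 lower in every mouse, and the median was 0.76. *Dnaja1* and *Bag3*, co-chaperones of the Hsp70 proteins, had log2 differences of 1.05 ± 0.22 and 1.00 ± 0.31. The constitutive chaperone *Hspa8* was higher in 3 of 6 mice (0.12 ± 0.18), and *Hspa5*, the chaperone of the endoplasmic reticulum, was lower in 5 of 6 (-0.48 ± 0.21). Of 21 genes of the kinase relays to SRF and CREB, which act upstream through phosphorylation, 0 passed, 2 were higher and 0 lower in every mouse, and the median was 0.21. Those 2 were the co-activators *Crebbp* (log2 1.48 ± 0.46) and *Ep300* (2.25 ± 0.72), with edgeR adjusted p = 0.541 and 0.565.

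**Figure D4:**
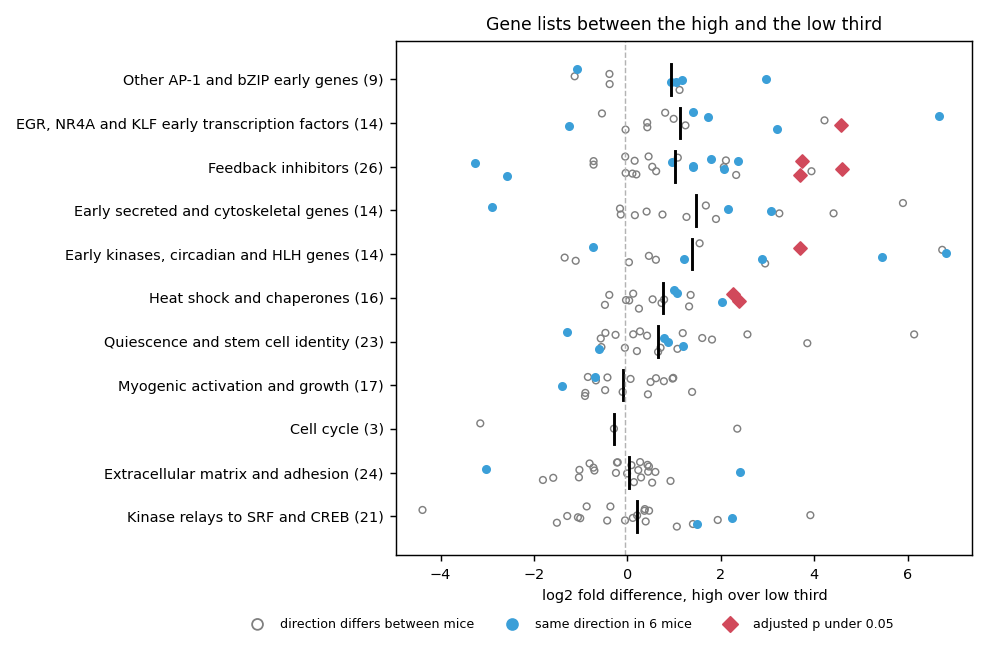
Log2 difference of high over low cells for each tested member of 11 gene lists (number tested in brackets). The black bar is the median of the list and the dashed line the median of all genes tested (-0.05). Red diamonds passed an adjusted p of 0.05, blue points had the same direction in 6 mice and open points did not. The bars of the early response and heat shock lists lie right of the dashed line, as do those of the quiescence list (0.66) and the kinase relays (0.21). Those of the myogenic, cell cycle (3 genes) and matrix lists lie between -0.29 and 0.04.

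Genes of the stem cell state were described next. *Pax7*, the transcription factor that defines these cells and whose reporter was used to sort them, stood at 1287, 936, 1200.3 and 559 CPM in the high cells of Y4, Y5, Y7 and Y8 and at 2406 and 1295 CPM in those of O1 and O5. In the low cells it stood at 605, 342, 527, 279, 881 and 677 CPM. It was higher in 6 of 6 mice, by 0.93 to 1.45 on the log2(CPM + 1) scale, but the groups overlapped between mice; the log2 difference of 1.19 ± 0.18 fell just short of the threshold (edgeR adjusted p = 0.0517; over 22 alternatives, DESeq2 and limma among them, the adjusted p was 4.43e-06 to 1, and 6 passed). It had reads in 97.7% of high and 79.5% of low cells. Of 23 genes of quiescence and stem cell identity, 0 passed, 3 were higher (*Pax7*, *Cdh15*, *Notch3*) and 2 lower (*Sdc4*, *Rbpj*) in every mouse, and the median was 0.66. *Cdh15*, or M-cadherin, stood at 345 to 859 CPM against 103 to 601 CPM (log2 0.87 ± 0.27). *Sdc4*, a surface proteoglycan of these cells, stood at 2698 to 6792 CPM against 3465 to 11684 CPM (log2 -0.62 ± 0.14, edgeR adjusted p = 0.258). *Gas1* was higher in 5 of 6 mice (1.6 ± 0.60), *Calcr* in 4 of 6 (0.71 ± 0.43) and *Vcam1* in 3 of 6 (-0.25 ± 0.53). *Spry1*, which is counted in the feedback list, was higher in 4 of 6 (0.53 ± 0.42).

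Of 17 genes of myogenic activation and growth, 0 passed, 0 were higher and 2 lower in every mouse, and the median was -0.10. *Myod1*, the myogenic factor induced on activation, was lower in 5 of 6 mice, at 71.9 to 1003 CPM against 329 to 3059 CPM (log2 -0.90 ± 0.39, edgeR adjusted p = 0.757). *Myf5* was higher in 4 of 6 mice (0.61 ± 0.51). *Ncl*, the nucleolar protein of ribosome assembly, was lower in 6 of 6 (-0.69 ± 0.19). Cell cycle genes had few reads, and 3 of 16 could be tested, of which 0 passed, with a median of -0.29. *Pcna*, the clamp of DNA polymerase, was lower in 5 of 6 mice (log2 -0.29 ± 0.53), and its value is that median. *Mcm6*, a subunit of the replicative helicase, was lower in 4 mice, at 0 to 36.1 against 0 to 58.2 CPM. *Ccna2*, cyclin A2, was higher in 4, at 0 to 24.6 against 0 to 8.78 CPM. Both had too few reads for a fold. *Ccnd1*, cyclin D1, which is not in this list, was higher in 5 of 6 mice (0.97 ± 0.80). Of 24 matrix and adhesion genes, 0 passed, 1 was higher and 1 lower in every mouse, and the median was 0.04. *Col3a1* had -0.25 ± 0.29 and *Mmp2* 0.14 ± 0.34. *Cebpb*, a factor of inflammation and stem cell identity that is not in this list, had 0.03 ± 0.24. Of 80 genes of ribosomal proteins, 0 passed and the median was -0.02.

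The effect was compared between old and young mice by the interaction of age and group. It passed for 0 of 8723 genes (0%) with edgeR, with 405 at an unadjusted p of 0.05. It passed for 539 with DESeq2, which was run on a larger set of genes, without a filter on low counts. For the genes past the threshold the log2 differences of young and old mice were 4.93 ± 0.57 and 4.05 ± 0.52 for *Btg2*, 3.72 ± 0.53 and 3.84 ± 0.39 for *Zfp36*, 2.39 ± 0.24 and 2.45 ± 0.35 for *Hspa1a*, and -1.66 ± 0.24 and -1.78 ± 0.41 for *Akap2*. *Nr4a1* had 4.08 ± 0.36 in the young and 5.72 ± 0.72 in the old mice (interaction 1.62 ± 0.74, edgeR adjusted p = 1). *Vcam1*, a surface protein of these cells, and *Myf5* had opposite signs, 0.59 ± 0.42 and 1.39 ± 0.43 in the young against -1.91 ± 0.42 and -0.87 ± 0.59 in the old mice, and neither interaction passed (edgeR adjusted p = 1 for each). With 2 old mice, these values do not show that the ages act alike.

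The sequencing lane separates the mice, with Y4, Y5 and Y8 on lane 3 and Y7, O1 and O5 on lane 2, and each mouse holds both groups. Within lanes the log2 differences were 2.40 and 2.40 for *Hspa1a*, 3.70 and 3.79 for *Zfp36*, 5.15 and 4.14 for *Btg2* and -1.71 and -1.71 for *Akap2*, on lane 3 and lane 2. Library measures moved with the groups in some mice. The median number of genes detected in a cell differed between high and low cells by -528 in Y7, -370 in Y8 and -330.5 in O5, and by -58 to 74 in the others; the mean difference was -197 ± 246 (SD, n = 6; exact two-sided sign-flip permutation test, p = 0.188, smallest possible p 0.0313). The median reads differed by -42378 ± 66774 (p = 0.219, same exact permutation test). When the groups were set within strata of genes detected, 5 genes passed (*Hspa1a*, *Gm20481*, *Zfp36*, *Nr4a1*, *Id3*), while *Btg2* and *Akap2* had log2 differences of 4.05 and -1.41 with edgeR adjusted p = 0.0619 and 0.055. Over all alternatives their edgeR, DESeq2 or limma adjusted p ranged from 1.75e-16 to 0.867 and from 2.14e-09 to 1.

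The share of reads on ribosomal protein genes, taken over the reads outside the sum, was 5.05% ± 1.00 in the high and 5.00% ± 0.89 in the low cells (difference 0.04 points, higher in 3 of 6 mice, exact sign-flip permutation test p = 0.875). Similarity between cells of a group was measured by Spearman's rho between pairs of cells over the 500 most variable genes of each mouse. It was 0.21 ± 0.06 among high and 0.22 ± 0.03 among low cells (difference -0.00078 ± 0.045, higher in 2 of 6 mice, exact sign-flip permutation test p = 0.969). The high cells of Y4 and Y5 were more alike than the low cells, and those of the other 4 mice were less alike.

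**Figure D5:**
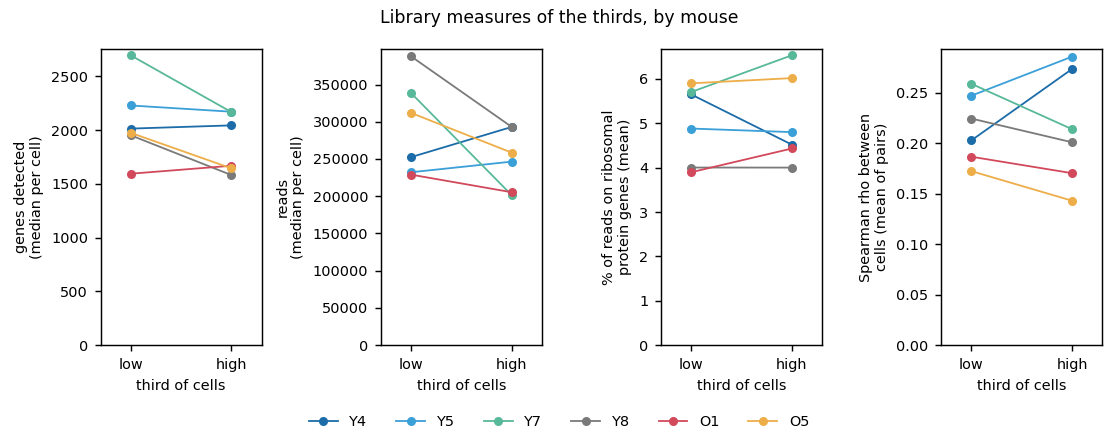
Median genes detected, median reads, mean share of reads on ribosomal protein genes and mean Spearman's rho between pairs of cells, in the low and high cells of each mouse; each line joins the groups of 1 mouse and axes start at 0. Genes detected drop in Y7, Y8 and O5, and the share of ribosomal protein reads has no common direction.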

How the data were processed

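RNA was measured in single Pax7-nGFP Hi muscle stem cells. After trimming, HiSat2 alignment to GRCm38 and counting in SeqMonk, the authors deposited raw counts of reads per gene and cell, with no normalisation; cells of mice Y2 and O8, which the labels list, were not analysed here. The table holds 25952 genes, and all 377 columns were mapped to a cell of the labels. A gene overlapping another, or nearly identical to it, is uncertain, since the use of strand is not given in the sources used here.

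For the comparison the 6 genes were removed, the counts of the high and low cells were summed per mouse, and edgeR 4.0.16 (filterByExpr, TMM, quasi-likelihood test, mouse as block, Benjamini-Hochberg, threshold 0.05) was run in R 4.3.3; 17223 genes were removed as low. The samples are paired because both groups of cells come from the same mouse. Mice are the replicates. Library measures were tested over the paired mice by exact two-sided sign-flip permutation in Python 3.11.15 with numpy 2.4.6, scipy 1.17.1 and pandas 2.3.3. Standard errors are the log2 difference over the square root of F. Log values per cell used a pseudocount of 1 RPM. CPM used library sizes without the 6 genes. Variable genes for the similarity of cells had a mean of at least 10 RPM and the largest distance to a rolling median over 100 genes. Alternatives were DESeq2 1.42.0, limma 3.58.1, other scalings and filters, 100000 reads drawn from each cell, other ways to set the groups, and subsets of mice. The scripts were tested on simulated data.

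The members, the lists and the tests were chosen with earlier results of these data known. Genes were named if they belong to the sum or overlap one of its genes, if they passed the threshold, if they were among the highest expressed of a list with none past it, or if they were among 11 genes of the stem cell state, matrix and inflammation. Members of a list with the same direction in 6 mice, and their relatives, were named after their values were seen. The planned test of each gene of the sum against the other 5 is not given, since the genes were put together with their values known. Gene ends are from GENCODE M21 where its start was that of the table. The reads carry no molecular identifiers and are not counts of molecules, so depth bears on counting error only.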

Additional observations from a re-analysis of the deposited data

Results flagged for a closer look

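A mouse far from the other 5, by the gap to its nearest neighbour over the whole range, was found in 8 of 87 values screened; chance gives about 1 in 20 groups. With the groups set by the other 5 genes, the difference of *Junb* was 9.03 in O1, above 6.52 to 7.34 in the other mice. The other 7 are log2 ratios of high over low cells, with 1 CPM added. *Zfp36* had 1.77 in Y8, below the other mice, and *Sertad1*, a co-regulator of transcription among the feedback list, had 5.07 in Y4, above them. *Cxcl1* had 2.43 in Y4, above the others. Mouse O1 stood alone for *Dag1* (3.03), *Ccnd1* (4.59) and *Thbs1* (7.67), above the others, and for *Fbl* (-5.23), below them. In O1 the low cells had 1.16 CPM of *Thbs1*, 0.291 CPM of *Ccnd1* and 210.4 CPM of *Dag1*.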

How the results depend on the processing

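The 11 genes past the threshold kept their direction under all 22 alternatives in which the test was run again, but their number moved. DESeq2, run without a filter on low counts, called 896 of 15318 genes, of which 3861 had no adjusted p. Limma on mean log2 values called 287 of 8723 genes, and edgeR with no filter on low counts 17 of 15318. With every cell thinned to 100000 reads edgeR called 19 of 7994, and with groups set by mean rank 19 of 8718. Each of these held the 11. Groups set within strata of genes detected gave 5. Young mice alone gave 0 (458 at an unadjusted p of 0.05), old mice alone 0 (227), lane 3 mice 0 (317) and lane 2 mice 1 (*Zfp36*). Without 1 mouse the count was 5 to 9: 5 without O5, 6 without Y5, 7 without Y7 and 7 without Y8. *Akap2* passed without Y8 and in no other set of 5 mice. Without the replicate block, that is unpaired, 13 genes passed, 8 of them among the 11. The interaction with age gave 539 genes with DESeq2, run without a filter on low counts, and 0 to 1 with edgeR without 1 mouse. The difference in the ribosomal share was -0.177 points within strata and -0.112 to 0.280 points without 1 mouse. The difference in similarity was 0.0019 after thinning, 0.0122 by mean rank, 0.0148 within strata and -0.0151 to 0.00805 without 1 mouse. The differences ranged, without 1 mouse, from -251 to -131 genes detected and from -58959 to -23411 reads. The subsets held fewer mice, and the cause of these moves was not tested. Of 1691 values of 77 named genes under the alternatives, 1475 kept their call and direction, 88 passed the threshold where the reported value did not and 85 no longer passed. The other 43 changed sign, all in genes past the threshold neither as reported nor under that alternative, such as *Vcam1*, *Pcna*, *Mcm6*, *Col3a1*, *Myf5*, *Mmp2* and *Cebpb*. The test had limits: 17223 genes were too low to test, and why they were low was not tested. The summed reads had a common dispersion of 1.57, so genes that differ less than the named ones could be missed.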

Other observations

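Beyond the lists and the named genes, 17 genes with a mean of at least 50 CPM were higher in the high cells, and 15 were lower, with no overlap between the groups. They were chosen after their values were seen, and none passed the threshold. On the higher side were *Bcl3*, a nuclear partner of NF-kappaB (143 to 540 CPM against 10.0 to 114 CPM, log2 2.43 ± 0.43, edgeR adjusted p = 0.109), *Cish*, a feedback inhibitor of cytokine receptors and relative of *Socs3* (194 to 1185 against 0 to 134 CPM, log2 3.80 ± 0.92, edgeR adjusted p = 0.319), *Arid5a*, an RNA-binding factor of inflammation (551 to 1445 against 182 to 422 CPM, log2 1.35 ± 0.34), *Tuba1a* (428 to 1254 against 161 to 366 CPM, log2 1.51 ± 0.36) and *Bmp4*, a secreted ligand of the BMP family (242 to 504 against 29 to 236 CPM, log2 1.79 ± 0.47).

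On the lower side were the interleukin-1 receptor *Il1r1* (6.67 to 137 against 269 to 656 CPM, log2 -3.52 ± 0.62, edgeR adjusted p = 0.108), *Ptpn2*, a phosphatase of JAK kinases (13.1 to 73.3 against 150 to 424 CPM, log2 -2.50 ± 0.55), and *Srxn1*, an antioxidant gene (27.4 to 572 against 730 to 3016 CPM, log2 -2.27 ± 0.52). Among them were also *Ran*, a GTPase of nuclear transport (122 to 262 against 347 to 611 CPM, log2 -1.20 ± 0.25), and *Eif4e*, which binds the cap of messenger RNAs (99.7 to 220 against 235 to 629 CPM, log2 -1.35 ± 0.31). The nucleolar genes *Nat10* (0 to 39.1 against 56.6 to 177 CPM), *Rrs1* (0 to 44.2 against 45.6 to 199 CPM) and *Mak16* (0 to 82.5 against 91.7 to 198 CPM) reached 0 in high cells. Their edgeR adjusted p values were 0.446, 0.612 and 0.708. *Hif1a*, the factor of the hypoxia response, stood at 1.32 to 278 CPM in the high and at 287 to 1024 CPM in the low cells (log2 -3.17 ± 1.49, edgeR adjusted p = 0.803). The share of all genes with such a pattern is given with the lists, and genes detected were lower in the high cells of Y7, Y8 and O5; its part in these values was not tested.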
